A study of Mus musculus with 2 samples.

Results

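The collagen genes of the mouse were followed across 2 embryonic sites, 2 stages and 2 sorted fractions. Every gene row whose symbol reads Col, a number, a, and a second number was taken as a member, whatever its level. The rule found the same 42 genes in both count tables, of 20575 gene rows at E9.5 and 20823 at E11.5. They comprised 11 fibrillar chains, 6 basement membrane chains (collagen IV), 9 chains of the FACIT class (fibril-associated collagens with interrupted triple helices) and 16 others. The others were beaded filament collagen VI and related chains, multiplexins, transmembrane collagens and a few chains outside these groups. The 26 genes with at least 100 counts over the sorted wells are described by name. The other 16 had 2 to 88 counts and are summarised at the end.

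The cells were single live cells, negative for the viability dye 7AAD, from the aorta-gonad-mesonephros region (AGM) and the yolk sac of wild-type C57Bl/6 embryos at E9.5 and E11.5. The AGM is the embryonic region around the dorsal aorta in which blood stem cells arise from the vessel wall, and the yolk sac is the extraembryonic site of the earliest blood formation. Sorting on VE-cadherin, an adhesion protein of endothelial cell junctions encoded by Cdh5, gave a positive fraction, labelled endothelial, and a negative fraction, labelled microenvironment. The cells were dispensed into the nanowells of an ICELL8 chip, with 1 chip for E9.5 and 1 for E11.5. Some wells of each chip received RNA of E14FF mouse embryonic stem cells (positive control) and some received no cell (negative control). No group carries a mutation or a treatment, and the number of embryos behind each group is not given in the labels. Site, stage and fraction make 8 pools with 1 sample each, so no comparison between pools has replicates and no p-value is given. Intervals in brackets are 95% intervals that cover counting error only, and they are too narrow if copies of the same molecule were counted.

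After removal of wells with fewer than 500 detected genes or over 20% mitochondrial counts, 284 to 379 wells remained per pool, with 841341 to 3862642 counts in total and a median of 2538 to 12452 counts per well. Levels are in CPM, the counts of a gene scaled to 1000000 counts of its pool. Cdh5 stood at 245 to 483 CPM in the 4 VE-cadherin positive pools and at 5.95 to 14.7 CPM in the 4 negative pools, so the fractions matched their label. At least 3 of 12 endothelial marker genes were detected in 285 of 299 AGM positive and 297 of 325 yolk sac positive wells at E9.5, but in 150 of 284 and 149 of 343 at E11.5. Macrophage markers reached that number in 52 AGM and 61 yolk sac positive wells at E11.5. Erythroid markers did so in all 305 negative yolk sac wells at E9.5, where haemoglobin made up a median of 38.1% of counts, and visceral endoderm markers in 340 of the 343 positive yolk sac wells at E11.5. In pooled counts of this kind, fewer cells of a type and less RNA per cell cannot be told apart. The chips share 473 cell barcodes, which mark well positions, not cells.

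Collagens are trimers of chains that wind into a triple helix. The fibrillar collagens I, II, III, V and XI are cut from procollagens and assemble into the fibrils of connective tissue and cartilage, and they are made mainly by mesenchymal cells. Collagen IV forms the sheet-like network of basement membranes, which endothelial cells lay down on their outer side. Multiplexins such as collagen XVIII are proteoglycans tied to those membranes, FACIT collagens coat fibrils, and transmembrane collagens such as XIII, XXIII and XXV sit in the cell surface.

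Promoter windows from RefSeq (build GRCm38.p6) were read for 4 genes on which the results turn: Col3a1 and Col11a1, fibrillar genes that followed the negative fraction in every pair, and Col13a1 and Col23a1, transmembrane genes with opposite site patterns in the positive fraction. Each line gives the 250 bases before the annotated start, 5′ to 3′ on the gene's strand. Capitals mark every match, on either strand, to 3 common promoter motifs. These are the CCAAT box, the GC box with the letters GGGCGG, and a TATA box with the letters TATAAA. None of the windows overlaps an annotated exon.
Col3a1, chr1:45311288-45311537, plus strand: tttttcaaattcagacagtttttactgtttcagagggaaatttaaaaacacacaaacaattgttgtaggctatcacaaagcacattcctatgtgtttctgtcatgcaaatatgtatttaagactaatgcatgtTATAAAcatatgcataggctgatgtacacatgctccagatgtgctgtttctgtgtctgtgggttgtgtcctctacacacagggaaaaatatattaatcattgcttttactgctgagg
Col11a1, chr3:114030290-114030539, plus strand: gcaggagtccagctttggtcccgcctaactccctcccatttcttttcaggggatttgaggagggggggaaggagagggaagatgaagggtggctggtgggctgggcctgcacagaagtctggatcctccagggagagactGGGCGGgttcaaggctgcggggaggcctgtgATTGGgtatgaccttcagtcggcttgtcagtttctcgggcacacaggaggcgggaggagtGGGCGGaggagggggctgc
Col13a1, chr10:61979109-61979358, minus strand: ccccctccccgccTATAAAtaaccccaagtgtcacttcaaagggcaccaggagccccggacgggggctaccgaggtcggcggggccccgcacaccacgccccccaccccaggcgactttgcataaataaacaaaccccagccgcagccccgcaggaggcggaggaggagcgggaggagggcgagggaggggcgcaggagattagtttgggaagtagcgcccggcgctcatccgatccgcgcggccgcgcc
Col23a1, chr11:51289670-51289919, plus strand: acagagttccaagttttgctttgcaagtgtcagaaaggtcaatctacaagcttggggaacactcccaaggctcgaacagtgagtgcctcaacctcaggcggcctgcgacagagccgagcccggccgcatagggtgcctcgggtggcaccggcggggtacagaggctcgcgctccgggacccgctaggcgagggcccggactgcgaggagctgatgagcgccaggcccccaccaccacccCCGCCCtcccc
The Col3a1 window is 35.2% G or C and holds 1 TATAAA, and the Col11a1 window is 62.4% G or C and holds 1 CCAAT and 2 GGGCGG matches. Col13a1 (68.8%) has 1 TATAAA and Col23a1 (66.0%) has 1 GGGCGG. Over the 36 windows of the 33 collagen genes found in that table, CCAAT occurred in 12, GGGCGG in 22 and TATAAA in 3. In all 32851 windows of the same length the shares were 33.8%, 32.7% and 12.4%. These are matches of letters and not evidence of binding. The minus-strand Col4a1 and plus-strand Col4a2 share 1 promoter region on chromosome 8, where their annotated starts overlap by 22 bases. Col4a5 and Col4a6 start 1343 bases apart on chromosome X. In the GENCODE vM21 annotation of the same build, Col4a1 spans chr8:11198423-11312826 and Col4a2 chr8:11312805-11449287, Col1a1 spans chr11:94936224-94953042, and Col18a1 spans chr10:77052178-77166548.

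The composition of collagen RNA differed between the fractions. Values of the 4 pools of a stage are given below in the order AGM positive, AGM negative, yolk sac positive, yolk sac negative. All collagens together made up 1014, 903, 1548 and 1003 CPM at E9.5 and 1830.4, 3685, 1910.4 and 10773 CPM at E11.5. The E11.5 negative yolk sac pool stood above every other pool. Of the collagen counts, fibrillar chains took 6.43%, 45.1%, 10.1% and 76.2% at the first stage, then 25.8%, 59.1%, 43.3% and 78.5% at the second. Basement membrane chains took 57.0%, 19.7%, 54.8% and 8.23% and then 43.6%, 9.21%, 37.0% and 8.32%. Fibrillar chains thus had the larger share of these classes in all 4 negative pools, and basement membrane chains in 3 of the 4 positive pools, the exception being the E11.5 yolk sac.

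**Figure D1:**
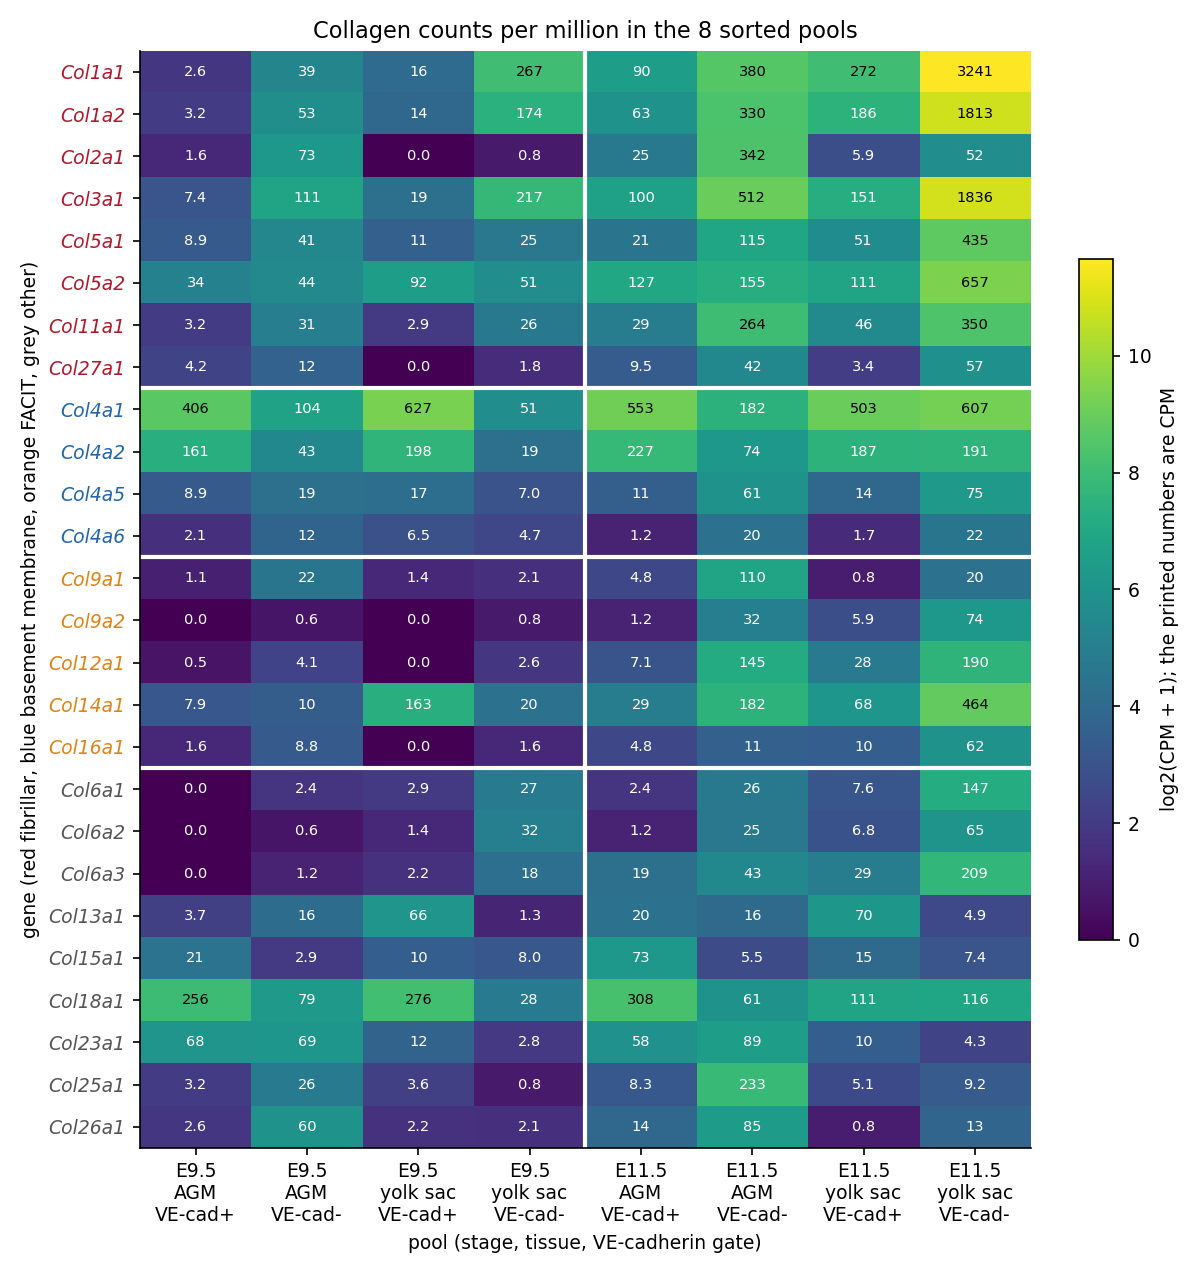
Level of the 26 collagen genes with at least 100 counts (rows, grouped by class) in the 8 pools (columns). The colour shows log2(CPM + 1) and each cell prints the CPM. Col4a1 is at 406 and 627 CPM in the E9.5 positive pools, and Col1a1 reaches 3241 CPM in the E11.5 negative yolk sac pool.

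Among the fibrillar chains, Col1a1 and Col1a2 encode the 2 chains of collagen I, the main fibril collagen of connective tissue. Col1a1 was measured at 2.63, 38.8, 15.9 and 267 CPM at E9.5 and at 90.3, 379.6, 272 and 3241 CPM at E11.5. Col1a2 was measured at 3.15, 53.0, 14.5 and 174 CPM and then at 63.0, 330.0, 186 and 1813 CPM. At each stage the negative yolk sac pool was highest and the AGM positive pool lowest for both. Col3a1, the chain of collagen III, which accompanies collagen I in soft tissue and vessel walls, had 7.36, 111, 18.8 and 217 CPM at E9.5 and 99.8, 512, 151 and 1836 CPM at E11.5. It kept the same order.

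Col5a1 and Col5a2 encode collagen V, which sits inside collagen I fibrils and sets their width. Col5a1 read 8.94, 41.2, 10.8 and 24.9 CPM at E9.5 and 21.4, 115, 50.7 and 435 CPM at E11.5. Col5a2 read 34.2, 44.1, 91.8 and 51.0 CPM and then 127, 155, 111 and 657 CPM, so at E9.5 its highest pool was a positive one, that of the yolk sac. Col11a1, a chain of collagen XI, had 3.15, 30.6, 2.89 and 25.6 CPM at E9.5 and 28.5, 264, 45.6 and 350.2 CPM at E11.5. Col2a1, the cartilage collagen, had 73.0 CPM in the AGM negative pool at E9.5 and 342 CPM at E11.5. In the AGM positive, yolk sac positive and yolk sac negative pools it had 1.58, 0 and 0.777 CPM at E9.5 and 25.0, 5.91 and 52.1 CPM at E11.5. The 0 counts allow up to 2.17 CPM. Col27a1, a fibrillar chain of cartilage, had 4.21, 11.8, 0 and 1.81 CPM and then 9.51, 42.2, 3.38 and 57.0 CPM, and was highest in a negative pool at each stage.

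The basement membrane genes were led by the collagen IV chains α1 and α2, present in nearly all basement membranes. Col4a1 was measured at 406 [378, 435], 104 [88.8, 120.0], 627 [586, 670] and 51.0 [44.1, 58.6] CPM at E9.5. At E11.5 it was measured at 553 [504, 605], 182 [157, 209], 503 [463, 545] and 607 [569, 646] CPM. Positive pools were thus above negative ones at both sites at E9.5 and in the AGM at E11.5, and in the E11.5 yolk sac the negative pool had the higher value. Col4a2 followed with 161, 42.9, 198 and 18.9 CPM and then 227, 74.3, 187 and 191 CPM. The chains α5 and α6, found in basement membranes of epithelium and smooth muscle, had another order. Col4a5 had 8.94, 18.8, 17.4 and 6.99 CPM at E9.5 and 10.7, 60.5, 14.4 and 75.4 CPM at E11.5, and Col4a6 had 2.10, 12.4, 6.51 and 4.66 CPM and then 1.19, 20.2, 1.69 and 22.1 CPM. At E11.5 both were higher in the negative pools. Col4a3 and Col4a4, the kidney and lung chains, had 6 and 8 counts over all pools.

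The multiplexins are basement membrane proteoglycans whose C-terminal fragments include endostatin. Col18a1 had 256, 78.8, 276 and 28.0 CPM at E9.5 and 308, 60.5, 111 and 116 CPM at E11.5. Col15a1 was scarcer, with 21.0, 2.94, 10.1 and 8.03 CPM and then 72.5, 5.50, 15.2 and 7.36 CPM, and was highest in the AGM positive pool at both stages. Of the transmembrane collagens, Col13a1 had 3.68, 16.5, 65.8 and 1.29 CPM at E9.5 and 20.2, 15.6, 70.1 and 4.91 CPM at E11.5. Col23a1 had 67.8, 69.4, 12.3 and 2.85 CPM and then 58.2, 88.9, 10.1 and 4.29 CPM. Both AGM pools were therefore above both yolk sac pools for Col23a1 at each stage, while Col13a1 peaked in the yolk sac positive pool at each stage. Col25a1, a transmembrane collagen of neurons and muscle, had 3.15, 25.9, 3.62 and 0.777 CPM at E9.5 and 8.32, 233, 5.07 and 9.20 CPM at E11.5, with the AGM negative pool highest.

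Of the FACIT genes, Col14a1, which binds collagen I fibrils, was measured at 7.88, 10.0, 163 and 20.2 CPM at E9.5 and at 28.5, 182, 68.4 and 464 CPM at E11.5. Its highest pool was the positive yolk sac fraction at E9.5 and the negative one at E11.5. Col12a1, of tendon and dense connective tissue, had 0.526, 4.12, 0 and 2.59 CPM at E9.5 and 7.13, 145, 27.9 and 189.5 CPM at E11.5. It too was highest in the negative pools at E11.5. The collagen IX genes of cartilage followed: Col9a1 had 1.05, 22.4, 1.45 and 2.07 CPM and then 4.75, 110.0, 0.845 and 20.2 CPM, and Col9a2 had 0, 0.588, 0 and 0.777 CPM and then 1.19, 32.1, 5.91 and 74.2 CPM. Col16a1 had 1.58, 8.83, 0 and 1.55 CPM at E9.5 and 4.75, 11.002, 10.1 and 61.9 CPM at E11.5.

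Collagen VI, which forms beaded filaments around mesenchymal cells and muscle, was nearly absent from the AGM at E9.5. Col6a1 had 0, 2.35, 2.89 and 26.9 CPM at E9.5 and 2.38, 25.7, 7.60 and 147 CPM at E11.5. Col6a2 ran from 0, 0.588, 1.45 and 31.6 CPM to 1.19, 24.8, 6.76 and 65.0 CPM. Col6a3 ran from 0, 1.18, 2.17 and 17.9 CPM to 19.0, 43.1, 28.7 and 209 CPM. All 3 were highest in the negative yolk sac pool at both stages, and 0 counts in the E9.5 AGM positive pool allow up to 1.58 CPM. Col26a1, a short collagen first described in reproductive tissue, had 2.63, 60.0, 2.17 and 2.07 CPM and then 14.3, 85.3, 0.845 and 12.9 CPM, again with the AGM negative pool highest.

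The control wells set the background. Fibrillar chains gave 0.130 counts per stem cell RNA well and 0.0833 per empty well on the E9.5 chip, but 1.36 and 1.00 on the E11.5 chip. Sorted wells of the E9.5 chip held 0.415, 1.95, 0.665 and 9.69 fibrillar counts per well. Those of the E11.5 chip held 1.40, 7.05, 2.86 and 36.4. The E11.5 AGM positive wells were thus at 1.40 fibrillar counts per well beside 1.36 in wells that held stem cell RNA, with median depths of 2538 and 2975 counts per well. Basement membrane chains gave 0.152 and 0.0625 counts per control well at E9.5 and 0.213 in both kinds at E11.5, against 0.853 to 3.85 in sorted wells. The part of free RNA in the E11.5 fibrillar values was not tested.

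**Figure D2:**
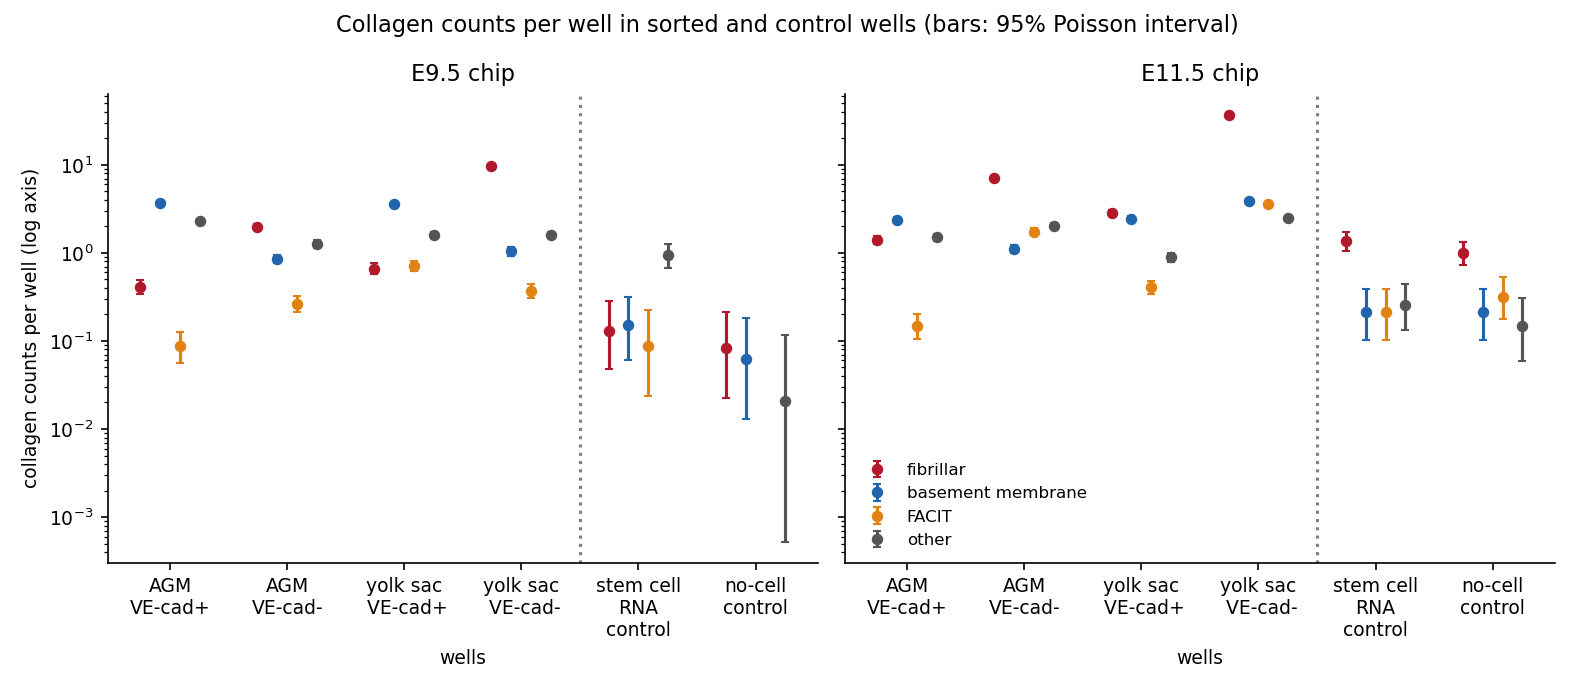
Counts per well (log axis) of the 4 collagen classes (colours) in sorted and control wells, with 1 panel per chip. Control wells held stem cell RNA or were empty, and bars show the 95% Poisson interval. The fibrillar value of the E11.5 AGM positive wells, 1.40, lies beside the 1.36 of the stem cell control wells. The E9.5 empty wells have 0 FACIT counts, which a log axis does not show.

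Shares of wells with a gene were also read at equal depth. After each well was thinned to 2000 counts, which kept 207 to 364 wells per pool, Col4a1 was detected in 48.6%, 16.9%, 65.5% and 7.89% of wells at E9.5. At E11.5 it was detected in 48.8%, 23.6%, 49.2% and 58.5%. In stem cell control wells the thinned share was 0 of 46, which allows up to 7.71%, at E9.5 and 5.26% at E11.5. Col1a1 was detected in 0.676%, 8.19%, 2.51% and 32.9% of thinned wells on the E9.5 chip and 15.9%, 50.0%, 29.9% and 98.6% on the E11.5 chip, beside 0 and 31.6% of the stem cell control wells. The E11.5 shares of both positive pools are at or below that control share, so they are not read as expression. Without thinning, Col1a1 was found in 87.5% of E9.5 and 100% of E11.5 negative yolk sac wells, and in 2.17% and 36.2% of stem cell control wells.

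Collagen genes differed between the sorted fractions in both directions, also within a class. Of the fibrillar genes, 5 were lower in the positive fraction in all 4 pairs of pools, Col4a1, Col4a2 and Col18a1 were higher in 3, and the E11.5 yolk sac was the exception for all of the latter. A gene is called here when its CPM differed at least 2-fold, the interval of the log2 ratio left out 0 and the pair held at least 20 counts. Log2 ratios below are positive over negative, for the AGM and yolk sac at E9.5 and then at E11.5. Of 20 collagens with enough counts in the E9.5 AGM, 4 were called higher and 13 lower, beside 6.83% and 20.2% of all genes. In the E9.5 yolk sac 7 of 18 were higher and 8 lower, beside 40.3% and 1.85%. In the E11.5 AGM 4 of 28 were higher and 21 lower, beside 6.30% and 36.9%, and in the E11.5 yolk sac 1 of 26 was higher and 20 lower, beside 8.78% and 11.8%. The median log2 ratio of the collagens was -2.18, 0.41, -2.47 and -3.02, and that of all genes -0.38, 0.82, -0.80 and -0.12.

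Of the fibrillar genes with enough counts, 7 of 8, 5 of 6, 8 of 9 and 8 of 8 were called lower in the positive fraction, and none higher. Col1a1 had log2 ratios of -3.89, -4.07, -2.07 and -3.57, and Col3a1 of -3.91, -3.53, -2.36 and -3.60. Col1a2 stood at -4.07, -3.59, -2.39 and -3.29, Col11a1 at -3.28, -3.15, -3.21 and -2.94, and Col5a1 at -2.20, -1.20, -2.42 and -3.10. These 5 genes were called lower in all 4 pairs, of 14 collagens measured in all 4, beside 0.414% of all genes measured in all 4. With equal weight per well the Col5a1 ratio in the E9.5 yolk sac was -0.99, just short of 2-fold. No collagen was called higher in all 4, beside 1.84%. Col5a2 departed from the other fibrillar genes, with -0.37 [-0.87, 0.13], 0.85 [0.52, 1.18], -0.28 [-0.65, 0.07] and -2.56 [-2.83, -2.30], called in the E11.5 yolk sac alone.

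In the basement membrane class, Col4a1 had log2 ratios of 1.97 [1.73, 2.21], 3.62 [3.40, 3.85] and 1.61 [1.36, 1.85] in the first 3 pairs. In the E11.5 yolk sac the ratio was -0.27 [-0.42, -0.12], which is less than 2-fold. Col4a2 had 1.90, 3.39, 1.61 and -0.04, and Col18a1 had 1.70, 3.30, 2.35 and -0.06. The negative yolk sac pool at E11.5 therefore held these 3 genes at a CPM within 2-fold of the positive pool. Col4a5, in contrast to its relatives, was called lower in the positive fraction in 3 pairs (-1.08, -2.50 and -2.39) and higher in the E9.5 yolk sac, at 1.31 [0.46, 2.16]. Its 2 ratios at E9.5 fell short of 2-fold under TMM scaling, at -0.63 and 0.48.

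Col15a1 was called higher in the positive AGM fraction at both stages, at 2.84 [1.50, 4.54] and 3.72 [2.52, 5.22], and not in the yolk sac, at 0.34 and 1.05. Col13a1 was called higher in the positive yolk sac fraction at both stages, at 5.67 [4.39, 7.32] and 3.84 [2.79, 5.10], but lower in the positive AGM fraction at E9.5, at -2.16. Col14a1 changed side in the yolk sac, from 3.01 [2.63, 3.40] at E9.5 to -2.76 at E11.5. Its ratios in the AGM were -0.34 and -2.68. Col23a1 differed less than 2-fold between the AGM fractions, at -0.03 and -0.61, and was higher in the positive fraction of the E9.5 yolk sac, at 2.11. The FACIT class as a sum had a log2 ratio of 2.50 in the E9.5 yolk sac, and of -1.10 without Col14a1.

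**Figure D3:**
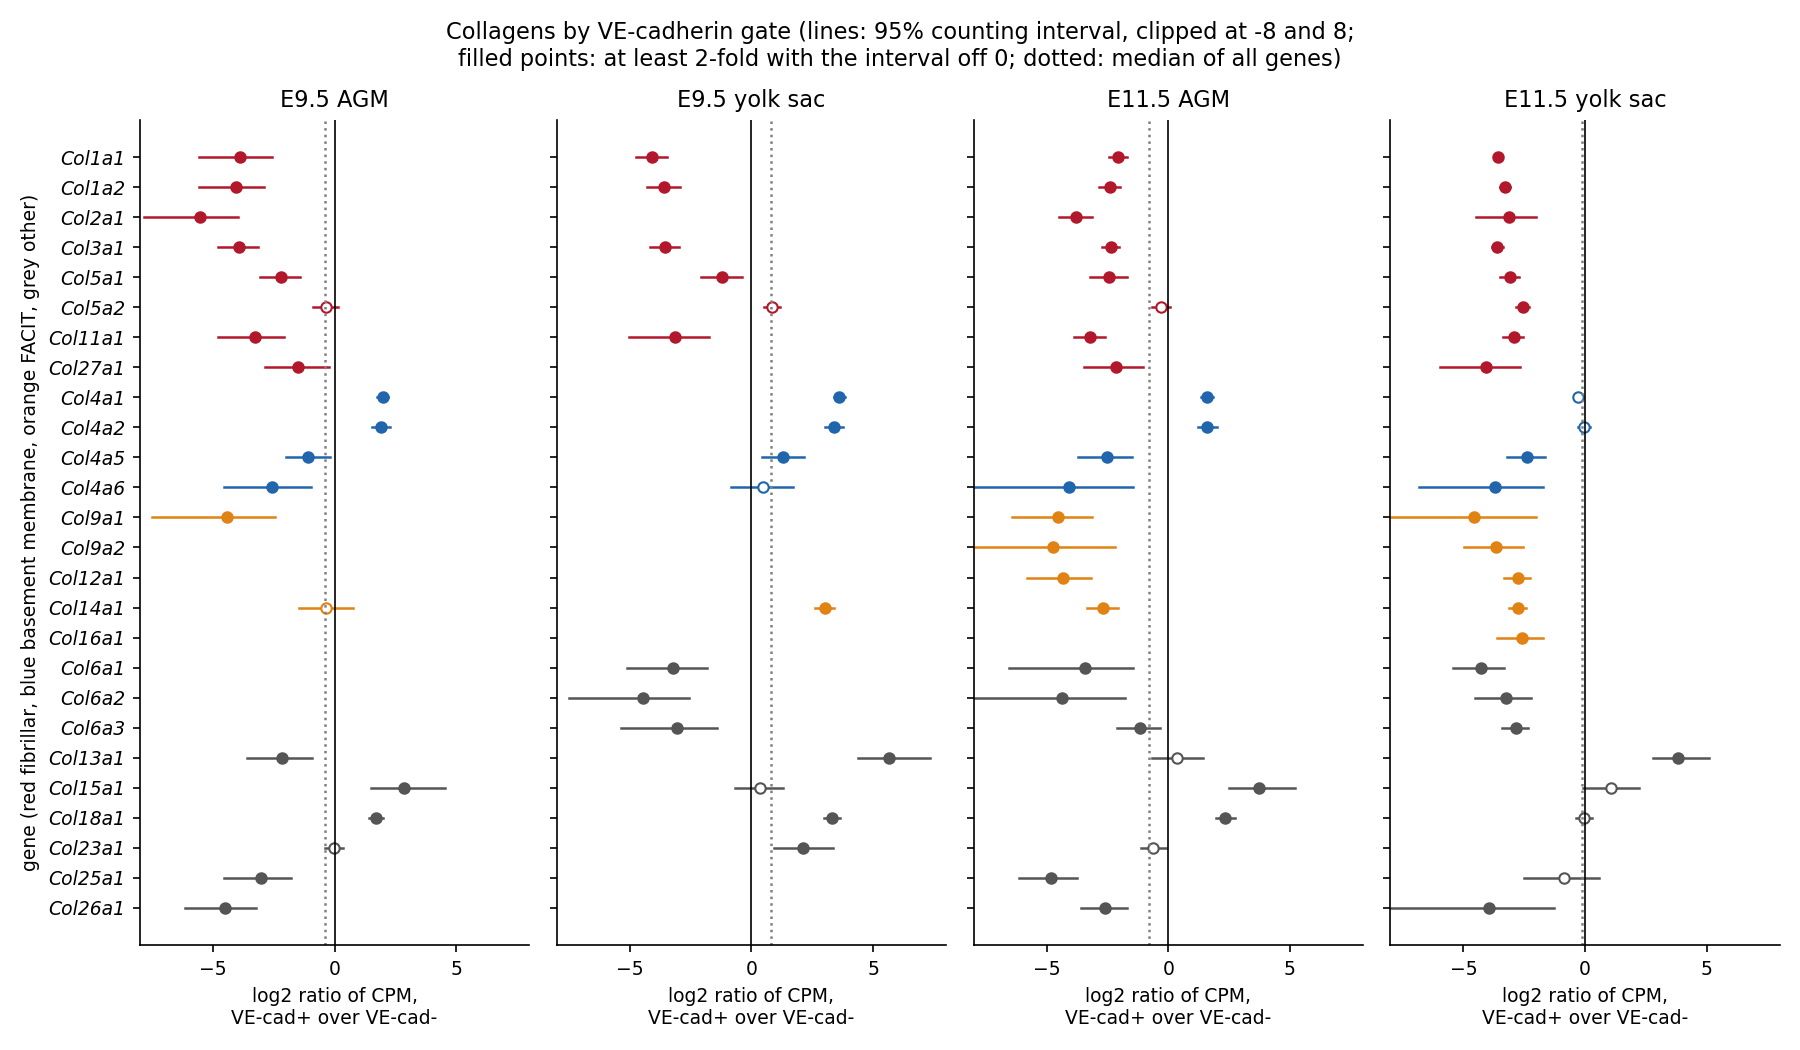
Log2 ratio of CPM in VE-cadherin positive over negative wells (x axis) for collagen genes (y axis) in the 4 pairs of pools, with 95% counting intervals clipped at 8. Filled points are called, open points are not, genes under 20 counts are not drawn, and the dotted line is the median of all genes. Col4a1 lies at 3.62 in the E9.5 yolk sac and at -0.27 in the E11.5 yolk sac.

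The positive pools at E11.5 held wells with at least 3 endothelial markers, wells with at least 3 macrophage markers and wells with fewer of both. The collagens were therefore also read by the markers of the well. This grouping was added after the data had been seen, and it used at least 3 detected markers of endothelial, macrophage, mesenchymal and smooth muscle lists, which contain no collagen gene. Wells under 3 markers in all 4 lists are called the remaining wells. Neither they nor the other groups are free of further markers, since the erythroid and visceral endoderm lists were not used. The remaining wells also include wells with endothelial markers below the limit. Exactly 2 endothelial markers were found in 63 of 284 AGM and 73 of 343 yolk sac positive wells at E11.5. At least 3 erythroid markers were found in 270 of 299 AGM and 225 of 325 yolk sac positive wells at E9.5. At E11.5 they were found in 115 of 284 AGM and 201 of 343 yolk sac positive wells, and visceral endoderm markers in 340 of the latter. Erythroid markers were found in all 305 E9.5 yolk sac negative wells. With all marker lists used, 259 of the 299 E9.5 AGM positive wells fell under more than 1 list and 26 under the endothelial list alone. The sum of Col4a1 and Col4a2 was 1303 CPM in the 126 endothelial-marker wells of the E11.5 AGM positive pool, 433 CPM in the 102 remaining wells and 237 CPM in the 30 macrophage-marker wells. The 22 wells with both endothelial and macrophage markers had 360.4 CPM [249.6, 504], which was not above the remaining wells. The log2 ratio of endothelial-marker to remaining wells was 1.59 [1.29, 1.90]. In the E11.5 yolk sac positive pool the sum was 1149 CPM in 127 endothelial-marker wells, 340.2 CPM in 142 remaining wells and 278 CPM in 40 macrophage-marker wells, a ratio of 1.76 [1.49, 2.03] to remaining wells. The 21 wells with both lists had 537 CPM [398, 708]. At E9.5 the same ratio was 1.55 [0.74, 2.50] in the AGM and 1.13 [0.59, 1.71] in the yolk sac, over 14 and 26 remaining wells.

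Col18a1 followed collagen IV, with log2 ratios of 2.00 [1.47, 2.56] in the AGM and 2.05 in the yolk sac at E11.5. In the E11.5 yolk sac Col13a1 stood at 144 CPM in endothelial-marker wells, 33.1 CPM in remaining and 6.46 CPM in macrophage-marker wells, and Col14a1 at 91.6 CPM beside 28.7 CPM in remaining wells. Fibrillar chains were closer. Their sum was 481 CPM in endothelial-marker and 509 CPM in remaining AGM wells at E11.5, a log2 ratio of -0.08 [-0.42, 0.25], and 554 and 577 CPM in the yolk sac, a ratio of -0.06 [-0.32, 0.20]. Macrophage-marker wells had 292 and 478 CPM. Between endothelial-marker and remaining wells, collagen IV thus differed and the fibrillar sum did not differ beyond counting error. In the AGM the fibrillar sums were 1.39 and 1.30 counts per well, beside 1.36 (429 CPM) in stem cell control wells of that chip. The AGM values therefore cannot show whether fibrillar expression differed between these groups. In the yolk sac the sums were 1.91 and 1.84 counts per well, above the control wells. The part of background in the yolk sac values was not tested. Col5a2 departed from the fibrillar sum in the yolk sac, with 139.7 CPM [106.8, 179.4] in endothelial-marker and 61.9 CPM [41.1, 89.4] in remaining wells.

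Negative yolk sac wells at E11.5 were grouped in the same way. Fibrillar chains stood at 8713 CPM in 153 wells with mesenchymal markers, at 10441 CPM in 94 wells with both mesenchymal and smooth muscle markers, at 6363 CPM in 33 wells with smooth muscle markers and at 5626 CPM in 93 remaining wells. The sum of Col4a1 and Col4a2 was 721, 1128, 586 and 484 CPM in these groups, in the same order. Col14a1 reached 711 CPM in the wells with both lists, beside 234 CPM in remaining wells. At E9.5 the 47 mesenchymal-marker wells of the negative yolk sac had 1620 CPM of fibrillar chains and the 210 remaining wells 555 CPM, a log2 ratio of 1.55 [1.43, 1.66]. Col15a1 there stood at 25.1 and 3.60 CPM, the former from 17 counts in 3 wells. In AGM negative wells the fibrillar sums lay closer, at 507 and 341 CPM at E9.5 and at 2250 and 2114 CPM at E11.5.

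**Figure D4:**
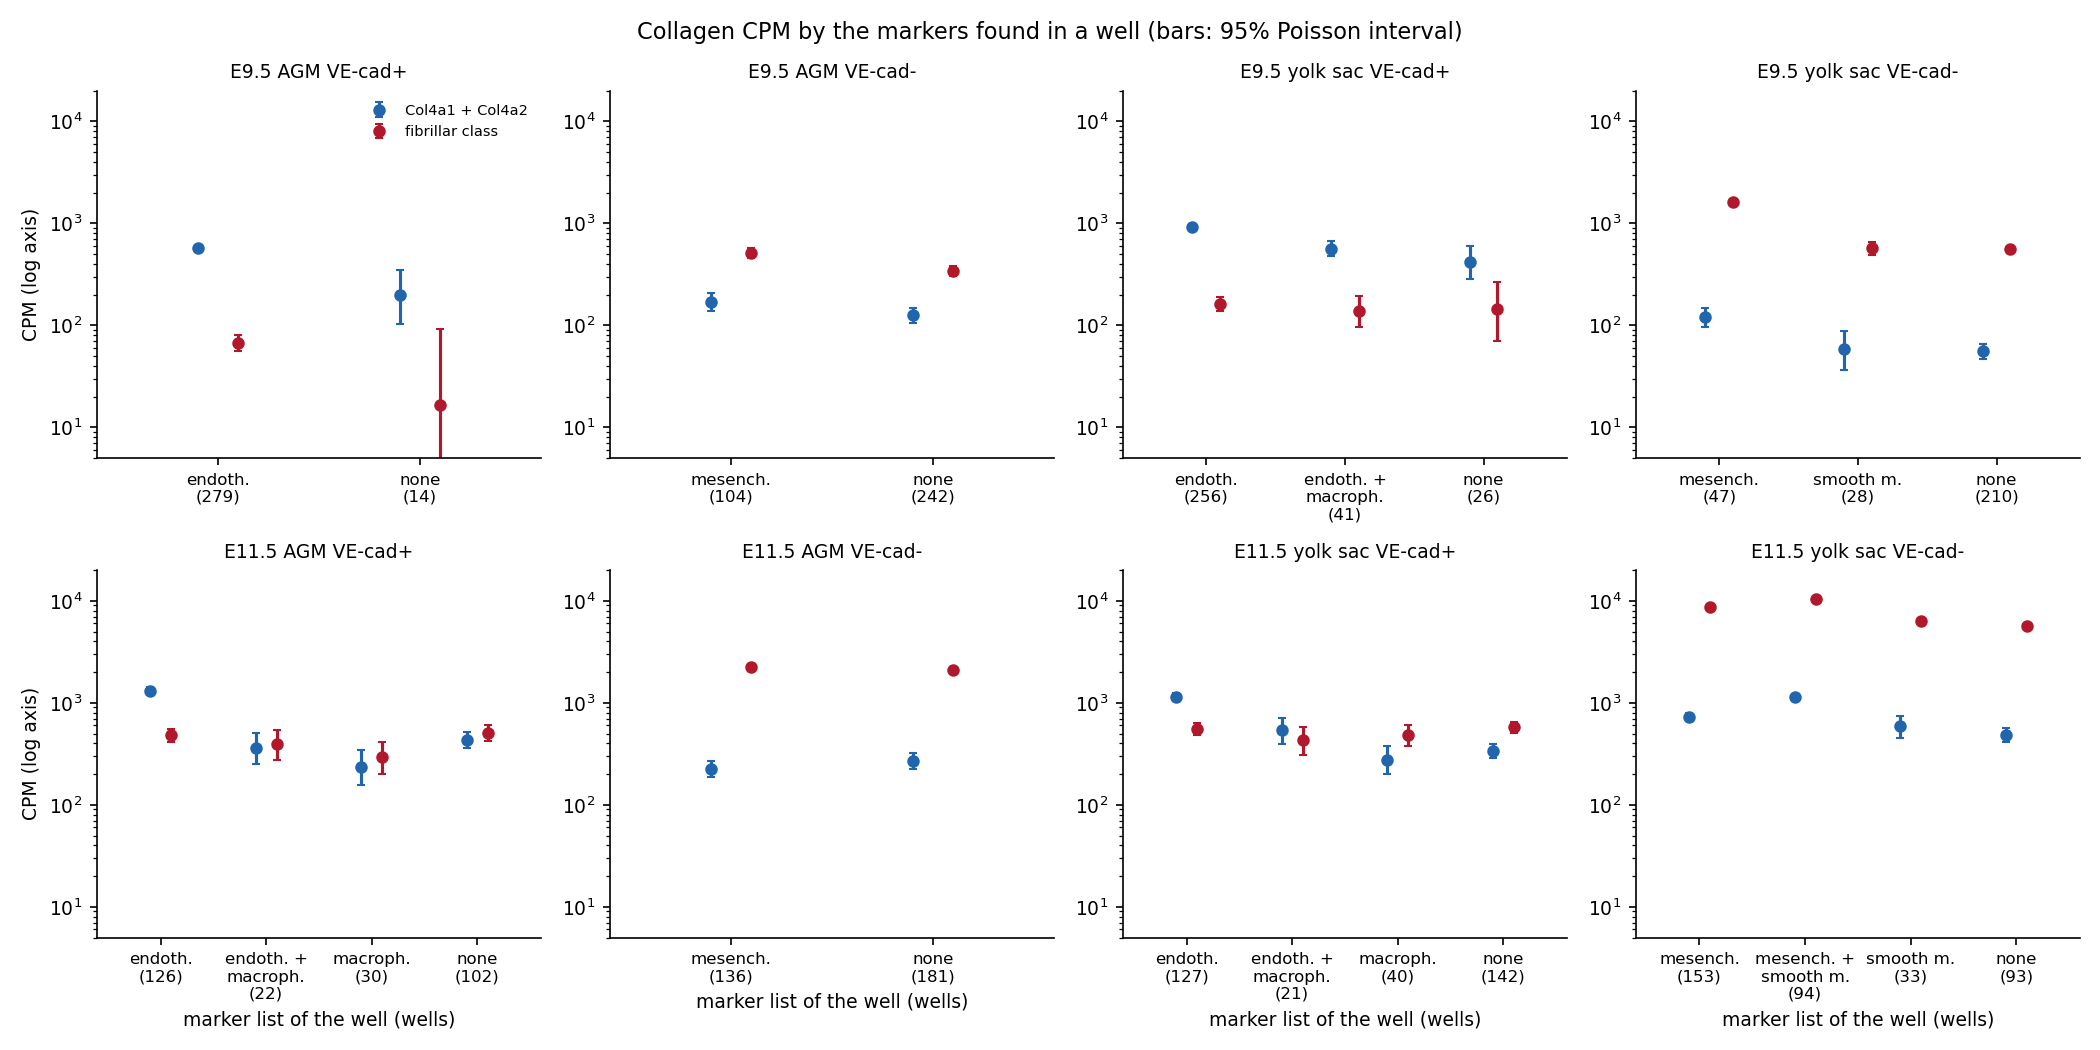
CPM (log axis) of Col4a1 plus Col4a2 and of the fibrillar chains in wells grouped by detected marker lists, for each pool with groups of at least 10 wells, with 95% counting intervals. In the E11.5 AGM positive pool collagen IV reads 1303 CPM in endothelial-marker and 433 CPM in remaining wells, and the fibrillar chains read 481 and 509 CPM. Stem cell control wells of that chip, which are not drawn, had 429 CPM of fibrillar chains.

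The 2 sites differed in the collagens of their VE-cadherin positive pools. Col23a1 and Col15a1 were called higher in the AGM at both stages, and Col13a1, Col14a1, Col1a1 and Col1a2 in the yolk sac, of 13 collagens measured at both. Of all genes measured at both stages, 0.911% were called for the AGM and 1.07% for the yolk sac. Log2 ratios below are AGM over yolk sac, at E9.5 and then at E11.5. Col23a1 had 2.46 [1.73, 3.29] and 2.52 [1.59, 3.57], and Col15a1 had 1.05 [0.15, 2.05] and 2.25 [1.48, 3.10]. With a stricter well filter the Col15a1 ratios were 0.99 and 1.10 and neither was called. Col13a1 had -4.16 and -1.79, Col14a1 had -4.37 and -1.26, Col1a1 had -2.60 and -1.59, and Col1a2 had -2.20 and -1.56. The E11.5 values of the collagen I genes stand beside the shares of thinned wells above, in which Col1a1 was no more frequent in either positive pool than in stem cell control wells. Col4a1 did not pass 2-fold at either stage, at -0.63 and 0.14. Col18a1 was called higher in the AGM at E11.5 alone, at 1.47 [1.16, 1.78], after -0.11 at E9.5. At E9.5, 2 of 13 collagens were called for the AGM and 6 for the yolk sac, beside 2.84% and 8.60% of all genes. At E11.5 the counts were 4 and 6 of 17, beside 9.13% and 3.62%. The collagen medians were -0.96 and -0.59, and those of all genes -0.12 and 0.24.

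In the VE-cadherin negative pools, 6 collagens were called for the AGM at both stages, a smaller share than that of all genes, and the chains of collagens I, VI and XIV were called for the yolk sac, a larger share. Called for the AGM at both stages were Col25a1 (5.06 and 4.66), Col23a1 (4.61 and 4.37), Col26a1 (4.86 and 2.73), Col2a1 (6.55 and 2.71), Col9a1 (3.43 and 2.44) and Col13a1 (3.67 and 1.67). The E11.5 Col13a1 ratio was 0.82 under TMM scaling and not called. Called for the yolk sac at both were Col1a1 (-2.78 and -3.09), Col1a2 (-1.71 and -2.46), Col6a1 (-3.52 and -2.51), Col6a2 (-5.75 and -1.39), Col6a3 (-3.92 and -2.27) and Col14a1 (-1.01 and -1.35). These were 6 and 6 of 23 collagens, 26.1% each, beside 31.6% and 1.76% of all genes. Cartilage collagens were not all on the AGM side, since Col9a2 was called for the yolk sac at E11.5, at -1.21. The median of all genes was itself displaced towards the AGM, by 1.17 at E9.5 and 0.88 at E11.5, beside haemoglobin medians of 4.54% and 3.44% of counts in AGM and 38.1% and 31.5% in yolk sac negative wells.

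At E9.5, 13 of 24 collagens were called for the AGM and 7 for the yolk sac, beside 55.2% and 3.78% of all genes, and the split was 7 and 9 when ratios were taken relative to the all-gene median or scaled by TMM. At E11.5 it was 8 and 13 of 29, beside 42.6% and 4.91%, and 6 and 19 relative to the median or 6 and 18 by TMM. The shares of all genes at both stages are from unscaled pool totals. None was computed for the rescaled splits, so those counts have no background beside them. On pool totals, collagen IV was called for the AGM at E9.5 and for the yolk sac at E11.5. Col4a1 had 1.02 [0.72, 1.32] at E9.5, which became -0.11 under TMM scaling, and -1.74 [-1.97, -1.52] at E11.5. Col4a2 had 1.18, which became 0.05, and -1.37. Col16a1 had 2.51 [1.06, 4.16], which became 1.37 and was no longer called, and -2.49 [-3.49, -1.63]. The collagen medians were 1.10 and -0.44.

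**Figure D5:**
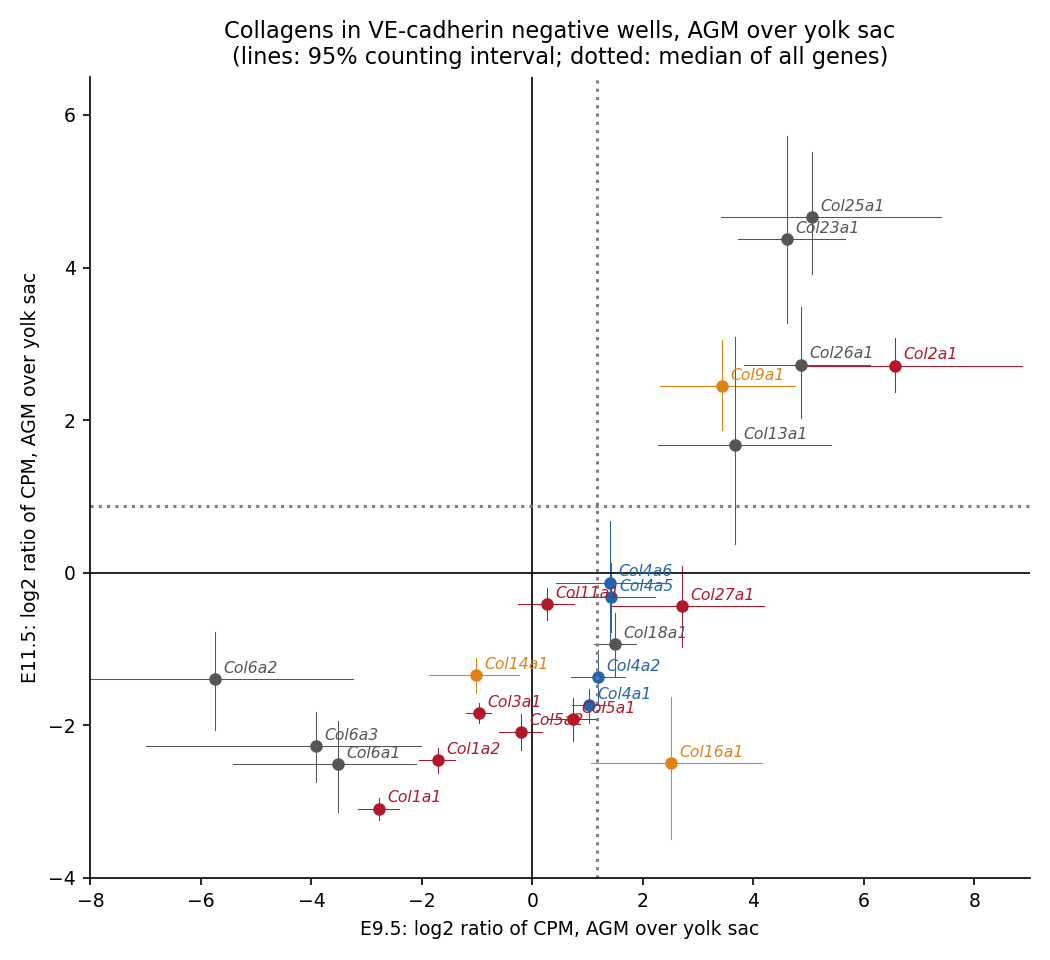
Log2 ratio of CPM in AGM over yolk sac in VE-cadherin negative wells, at E9.5 (x axis) and E11.5 (y axis), for collagens measured at both stages. Dotted lines mark the all-gene medians of 1.17 and 0.88. Col25a1 and Col23a1 lie at the upper right and Col1a1 and the collagen VI genes at the lower left.

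Most collagens with enough counts were higher on the E11.5 chip in VE-cadherin negative wells and in AGM positive wells. Each stage is 1 chip, so stage and chip cannot be told apart, and counts of the control wells are given beside the ratios. In negative wells 21 of 29 collagens in the AGM and 23 of 24 in the yolk sac were called higher at E11.5 and none lower. Of all genes, 14.9% and 31.4% were called higher and 9.64% and 13.3% lower. Both sites called 17 of 23 collagens, beside 9.95% of all genes, and none for E9.5, beside 4.74%. The collagen medians were 2.23 in the AGM and 3.56 in the yolk sac, and the all-gene medians 0.09 and 0.35.

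Log2 ratios in this paragraph are E11.5 over E9.5 in negative wells, for the AGM and then the yolk sac. Col1a1 had 3.29 and 3.60, Col1a2 2.64 and 3.38, Col3a1 2.21 and 3.08, Col11a1 3.11 and 3.77, and Col5a1 1.48 and 4.13. Col2a1 had 2.23 and 6.07, Col12a1 5.14 and 6.19, Col14a1 4.19 and 4.52, and Col9a2 5.77 and 6.58. Collagen IV and XVIII split by site: Col4a1 had 0.81 [0.51, 1.11], not called, in the AGM and 3.57 [3.35, 3.80] in the yolk sac, Col4a2 had 0.79 and 3.34, and Col18a1 had -0.38 and 2.05. The stem cell control wells moved the same way for the fibrillar class. They held 6 fibrillar counts at E9.5 and 64 at E11.5, a log2 ratio of 4.47 [3.27, 5.97], and Col1a1 alone had 1 and 27 counts, a ratio of 5.81 [3.21, 11.17]. In counts per well, fibrillar chains went from 9.69 to 36.4 in negative yolk sac wells and from 0.130 to 1.36 in stem cell wells. Basement membrane chains had 7 and 10 counts in the stem cell wells, a ratio of 1.57 [0.03, 3.20].

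In positive wells 10 of 15 collagens in the AGM were called higher at E11.5 and none lower, beside 8.63% and 20.4% of all genes, and with a stricter well filter 5 were. In the yolk sac 7 of 16 were higher and 2 lower, beside 4.76% and 32.6%. Col1a1, Col1a2, Col3a1, Col5a1 and Col11a1 were called higher at both sites, 5 of 14 collagens beside 2.37% of all genes, and none was called for E9.5 at both, beside 15.4%. Col1a1 had 5.10 [3.82, 6.77] in the AGM and 4.10 in the yolk sac, and Col3a1 had 3.76 and 3.01. With the stricter filter Col5a1 turned from 1.26 to -0.037 in the AGM. At E9.5 and E11.5 the stem cell control wells held 1 and 27 counts of Col1a1, 0 and 13 of Col1a2 and 0 and 12 of Col3a1. They held 1 and 1 of Col5a1 and 1 and 2 of Col11a1. Fibrillar chains gave 1.40 counts per E11.5 AGM positive well, beside 1.36 per stem cell well. Whether the fibrillar calls in AGM positive wells exceed background was not tested. Col4a1 did not pass 2-fold, at 0.45 and -0.32, nor did Col23a1, at -0.22 and -0.28. Col15a1 and Col13a1 were called higher in the AGM at 1.79 and 2.46 and not in the yolk sac at 0.59 and 0.09. The AGM call of Col13a1 was lost when the well with most of its counts was left out of each pool. Col14a1 was higher at E11.5 in the AGM, at 1.86 [0.87, 2.89], and lower in the yolk sac, at -1.25 [-1.63, -0.88]. Stem cell control wells held 0 Col14a1 counts at E9.5 and 5 at E11.5, a ratio of 1.80 with 0 set to 3. FACIT chains gave 0.148 counts per E11.5 AGM positive well, beside 0.213 per stem cell well and 0.319 per empty well. Whether the AGM value of Col14a1 exceeds background was not tested. Col18a1 was lower in the yolk sac, at -1.31 [-1.60, -1.02], beside a control ratio of -1.71 [-3.42, -0.34] from 34 and 5 counts. Under TMM scaling both yolk sac ratios fell short of 2-fold, at -0.80 for Col14a1 and -0.86 for Col18a1. The collagen medians were 1.86 and 0.43, and the all-gene medians -0.33 and -0.68.

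Partner chains of 1 collagen type were compared as shares of their summed counts within a pool, since gene length then stays the same from pool to pool. Col4a1 made up 70.7% to 76.0% of Col4a1 plus Col4a2 counts in all 8 pools, although the level of their sum varied. The share was 71.6% [68.8, 74.3] in the E9.5 AGM positive pool and 76.0% [73.4, 78.4] in the E9.5 yolk sac positive pool. The collagen I chains were less even, with Col1a1 at 42.3% [34.4, 50.5] of Col1a1 plus Col1a2 in the E9.5 AGM negative pool and 64.1% [63.1, 65.2] in the E11.5 yolk sac negative pool. Collagen V differed by fraction at E9.5 and in the AGM at E11.5. At E9.5 Col5a1 was 20.7% [12.6, 31.1] and 10.6% [6.03, 16.8] of Col5a1 plus Col5a2 in the positive AGM and yolk sac pools, and 48.3% [39.9, 56.7] and 32.8% [27.4, 38.5] in the negative ones. At E11.5 it was 14.4% [8.76, 21.8] in the positive and 42.5% [36.8, 48.4] in the negative AGM pool. In the yolk sac the E11.5 shares were 31.25% [24.8, 38.3] and 39.8% [37.5, 42.1]. Collagen VI changed its balance in negative yolk sac wells, where Col6a3 went from 23.4% of the 3 main chains at E9.5 to 49.6% at E11.5 and Col6a2 from 41.4% to 15.5%.

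Detection of partner chains in the same wells varied. Within the AGM positive pool of E9.5 Col4a1 was detected in 93.2% of the 147 wells with Col4a2, beside 82.6% of all wells. After thinning to 2000 counts these shares were 60.9% and 48.6%. In the E11.5 AGM positive pool the thinned shares were 68.2% and 48.8%. In E9.5 AGM negative wells they were 17.4%, from 4 wells with both chains, and 16.9%. For collagen I in AGM negative wells at E11.5, Col1a1 was found in 56.5% of thinned wells with Col1a2 and 50.0% of all thinned wells. In E9.5 AGM negative wells the shares were 8.70%, from 2 wells with both chains, and 8.19%. In E9.5 yolk sac positive wells 20 held Col1a1 and 18 held Col1a2, and 0 of 325 held both. Since Col1a1 was in 6.15% of all these wells, 0 among 18 does not show that the chains avoid each other. Col1a1 was detected in 15.8% of thinned E11.5 AGM positive wells with Col4a1 and 15.9% of all.

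A list of 74 genes that make, cross-link, bind or degrade collagen was read beside the collagens. Of the 36 measured in all 4 pairs of fractions, Itga2 and Lama3 were called higher in the positive fraction throughout, and Plod2 and P4ha2 lower, 5.56% in each direction beside 1.84% and 0.414% of all genes. Itga2, a subunit of a collagen receptor, had log2 ratios of 4.42, 5.11, 2.82 and 3.16. Lama3, a laminin chain, had 4.42, 5.07 (with the 0 counts of the negative E9.5 yolk sac pool set to 3), 1.96 and 3.46. Plod2, a lysyl hydroxylase that prepares collagen for cross-linking, had -2.45, -2.07, -3.26 and -1.71, and P4ha2, a subunit of prolyl hydroxylase, had -1.91, -1.78, -1.43 and -2.90. With at least 50 counts required, Itga2 and Lama3 were no longer called in all 4 pairs. Pair by pair, 10, 32, 4 and 3 genes of the list were called higher and 12, 6, 27 and 38 lower, of 51, 49, 53 and 56. The shares of all genes were 6.83%, 40.3%, 6.30% and 8.78% higher and 20.2%, 1.85%, 36.9% and 11.8% lower.

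Between the sites, Mmp2, a metalloproteinase, and Lamb1, a laminin chain, were called for the AGM in positive wells at both stages, with 1.31 and 1.21 for Mmp2 and 1.35 and 1.06 for Lamb1. They were 6.45% of the 31 measured, beside 0.911% of all genes. Itga1, another collagen receptor subunit, and Lama3 were called for the yolk sac, with -1.44 and -1.19 for Itga1 and -1.05 and -1.19 for Lama3. With haemoglobin, mitochondrial and Gm42418 counts left out of the totals, neither of the AGM pair was called and 1 of the yolk sac pair was. The yolk sac pair was also 6.45%, beside 1.07%. In negative wells 8 of 52 genes were called for the AGM at both stages, 15.4% beside 31.6% of all genes, namely Adamts14, Ddr2, Itga11, Bmp1, Agrn, Plod2, Plod1 and Timp3. Among these, the collagen receptor Ddr2 had 3.41 and 2.95, and Bmp1, a procollagen C-proteinase, had 2.77 and 1.58. Lum (-2.33 and -2.87), Dcn (-2.88 and -1.88) and Sparc (-1.73 and -1.59) were called for the yolk sac, 5.77% beside 1.76%. Lum and Dcn are small proteoglycans that bind collagen fibrils, and Sparc binds collagen. Between the stages, 26 of 54 genes were called higher at E11.5 in the negative wells of both sites, beside 9.95% of all genes. The 20 with the largest smaller ratio were Lum, Lama2, Sparc, Bgn, Ddr2, Plod2, Dcn, Fkbp14, Timp2, Nid1, P3h3, Kdelr3, Bmp1, Ddr1, Itga1, Adamts2, Fn1, Mmp2, Hspg2 and Fkbp10. Lum had 2.96 in the AGM and 3.50 in the yolk sac, and Sparc 2.71 and 2.57. Itga10 alone was called for E9.5, at -3.68 and -2.22. In positive wells Lum, Dcn and Plod2 were called for E11.5 at both sites, with 1.81 and 2.68 for Plod2, and Itga10, Lamb3 and P3h1 for E9.5, with -1.75 and -1.16 for P3h1. These were 3 and 3 of 40, beside 2.37% and 15.4% of all genes.

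The remaining 16 collagens gave little to compare. Col9a3 had 88 counts, Col24a1 57 and Col8a1 49, and 10 of the 16 had under 20 counts over all 8 pools. Col6a5 had 2 counts and Col20a1 4. Col9a3 was called higher at E11.5 in negative wells of both sites, at 6.07 [3.51, 11.40] and 4.91 [3.25, 7.25], as its partner Col9a2 was. Its exons overlap those of Tcfl5 by 234 bases in the annotation, and those of Col3a1 overlap Gm47302 by 141 bases, so reads there may be shared.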

How the data were processed

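Single-cell RNA-seq was read from 2 deposited tables of raw counts per gene and well, 1 per chip, made by the authors from NextSeq 500 reads. FastQC, cutadapt, STAR and the builds mm10 and GRCm38 are named per the submitters' processing notes. Versions, the counting tool and any use of molecular identifiers are not given in the sources used here. Wells under 500 genes or above 20% mitochondrial counts were left out, and control wells were not filtered. Scrublet marked 9 E9.5 and 7 E11.5 wells as doublets, which were kept. Each pool's counts were added up per gene and scaled to its total over all gene rows. Log2 ratios carry exact conditional binomial 95% intervals, levels exact Poisson and shares Clopper-Pearson intervals, and 0 counts were set to 3 counts per pool. The intervals take each count as a separate molecule and leave out the spread between wells. PCR copies may be counted, in which case the intervals are too narrow even for counting error. A call needed a 2-fold difference, an interval off 0 and 20 counts over the pair, and was made over all 18323 genes present in both tables, of which the stated percentages are shares of those with 20 counts. The script was tested on simulated data. Collagens with at least 100 counts are described by name, and list genes when called the same way in every pair of a kind. The members and lists were chosen with earlier results of these data known. Alternatives were other well filters, scalings (TMM of edgeR 4.0.16, R 4.3.3), count minimums, well weights, marker minimums and thinning depths. Shares were thinned to 2000 counts per well. Analysis used Python 3.11.15, numpy 2.4.6, pandas 2.3.3, scipy 1.17.1 and scanpy 1.11.5. Levels are not per gene length, so genes were not ranked against each other. Col10a1 and Col17a1 were not analysed here.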

Additional observations from a re-analysis of the deposited data

Results flagged for a closer look

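Collagen counts appeared in wells that received no cell. On the E11.5 chip the 47 empty wells held 9 counts of Col1a1, 14 of Col1a2, 15 of Col3a1, 8 of Col4a1, 4 of Col5a1 and 6 of Col14a1, each above the 3 counts that a count of 0 allows.

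On pool totals, several collagens were called in opposite directions by 2 pairs of pools under the same contrast. The difference of their log2 ratios is given here, and the share of all genes that did so was not computed. These differences were not tested, because each pool is 1 sample. For the sort, Col4a5 differed between AGM and yolk sac at E9.5 by -2.39 and Col13a1 by -7.83. Within the yolk sac the sort ratio differed between E9.5 and E11.5 by 3.71 for Col4a5 and by 5.77 for Col14a1. For AGM over yolk sac at E9.5, positive and negative wells differed by -7.83 for Col13a1 and by 2.50 for Col15a1, and at E11.5 by -3.46 for Col13a1. In negative wells the site ratio differed between the stages by 2.76 for Col4a1, 2.55 for Col4a2 and 5.00 for Col16a1. For E11.5 over E9.5, Col14a1 differed by 3.11 between AGM and yolk sac positive wells and by -5.77 between yolk sac positive and negative wells, and Col18a1 differed by -3.36 between the latter. The pairs share pools, so these values are not independent of each other. Many also depend on the scaling. TMM left both E9.5 sort ratios of Col4a5 short of 2-fold. It did the same to the stage ratios of Col14a1 and Col18a1 in yolk sac positive wells. Between the sites in negative wells, it removed the E9.5 calls of Col4a1, Col4a2 and Col16a1 and the E11.5 call of Col13a1.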

How the results depend on the processing

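No paired analysis was possible because each pool is 1 sample and the labels give no replicate numbers shared between pools. Each count of called collagens stayed within 1.5 times its value without a well filter, without a count minimum, without doublets and without the well richest in the gene. Shares of all genes were not computed for the alternative settings, so the counts below have no background beside them. A minimum of 50 counts, which leaves fewer genes to call, lowered the count for negative wells of the E9.5 AGM from 13 to 8. It also lowered the yolk sac count in E9.5 positive wells from 6 to 3, the AGM counts in negative wells from 13 to 7 at E9.5 and from 8 to 5 at E11.5, and the E11.5 counts from 10 to 5 in AGM positive and from 21 to 13 in AGM negative wells. The stricter well filter (1000 genes, 10% mitochondrial counts) gave 1 for 2 and 2 for 4 AGM calls in positive wells at E9.5 and E11.5, and 5 for 10 at E11.5 in AGM positive wells. Equal weight per well gave 1 for 2 of the E9.5 AGM calls.

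Between the sites in E9.5 negative wells, 13 AGM calls became 7 by TMM, 7 relative to the all-gene median and 8 with totals that left out haemoglobin, mitochondrial and Gm42418 counts. The 2 collagens called for E9.5 in yolk sac positive wells became 0 under all of these and the stricter filter, and the 1 called for the positive E11.5 yolk sac fraction became 2 under equal weight, those totals and the median. Reversed values were -0.11 (TMM) and -0.15 (median) for Col4a1 between the sites in E9.5 negative wells and -0.037 for Col5a1 in AGM positive wells between the stages with the stricter filter. Less the control ratio, Col1a1 between the stages had -0.71 in AGM positive, -1.72 in yolk sac positive, -2.52 in AGM negative and -2.21 in yolk sac negative wells, and Col18a1 in yolk sac positive wells had 0.40. The control ratio of Col1a1 rests on 1 and 27 counts, so these values are not a measure of a chip effect.

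Without Col14a1 the FACIT sum had -1.10 (from 2.50) for the E9.5 yolk sac sort and 0.41 (from -3.61) between the sites in E9.5 positive wells. Without Col18a1 the multiplexin sum had -1.45 (from 1.18) between the sites in E9.5 negative wells, and 0.59 (from -1.17) and -0.12 (from 1.78) between the stages in yolk sac positive and negative wells. For the list of collagen-handling genes, the minimum of 50 counts gave 0 for 2 positive and 1 for 2 negative sort calls, 1 for 2 AGM calls in positive and 5 for 8 in negative wells, 0 for 3 at each stage in positive and 0 for 1 at E9.5 in negative wells. Totals without haemoglobin gave 1 for 2 negative sort calls, 0 for 2 AGM and 1 for 2 yolk sac calls in positive wells, 3 for 8 AGM calls in negative wells and 6 for 3 E11.5 calls in positive wells. Marker minimums and thinning depth also mattered. With all marker lists and at least 2 markers, 7 values of the marker groups were flagged as changed and 5 were not. With at least 4 markers, 12 were unchanged. On the 4 lists, 5 were flagged and 11 were not, with at least 2 and with at least 4 markers. Of the shares of wells, 49 were flagged and 31 were not after thinning to 1000 counts. Unless stated, the cause was not tested. Depth limits the 16 collagens under 100 counts and every share in AGM wells at E11.5.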
